A study of Mus musculus with 20 samples.

Results

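The measurement described here is the difference between 2 drug effects. For every gene and every splice isoform, the change under sudemycin D6 in mice expressing mutant U2AF1(S34F) was set against the change under the drug in mice expressing U2AF1(WT), as (sudemycin U2AF1(S34F) − vehicle U2AF1(S34F)) − (sudemycin U2AF1(WT) − vehicle U2AF1(WT)). All 20 bone marrow samples of the series entered it, 5 mice in each of the 4 groups, and no sample was left out. Recipients, lethally irradiated (C57BL/6 × 129S4Sv/Jae)F1 mice of 6 to 12 weeks, carried transgenic marrow pooled from 2 to 3 donors aged 8 to 12 weeks, so that mice of a genotype shared donors. All groups ate chow with 625 ppm doxycycline for 7 days, which switched on the human transgene through the rtTA activator. On the last 5 of those days they received an intravenous infusion of sudemycin D6 (daily dose 50 mg per kg, sudemycin-treated U2AF1(WT) and U2AF1(S34F) groups) or of the cyclodextrin vehicle (vehicle-treated U2AF1(WT) and U2AF1(S34F) groups). The RNA is of bulk marrow 18 h after the last infusion, and donor chimerism had been checked at least 6 weeks after transplantation. Recipient cells that remain are part of the sample.

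U2AF1 is the small subunit of the U2AF heterodimer and reads the AG dinucleotide at the end of an intron. The S34F mutation, found in myelodysplastic syndromes and acute myeloid leukaemia, lies in a zinc finger that contacts this site and changes which acceptor sites are used. Sudemycin D6 binds SF3B1, a U2 snRNP protein that acts at the branch point just upstream, so that mutation and drug meet at the same step of spliceosome assembly. An interaction, as the word is used below, is a drug response that differs between the genotypes. It is positive when the level of a gene under the drug moved up more, or down less, in U2AF1(S34F) than in U2AF1(WT) mice.

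The total gene count of a mouse lay between 41145892 and 62138138. *U2af1*, whose reads cannot be assigned to the transgene or to the endogenous gene, had 34.9 to 38.4 CPM (edgeR counts scaled to library size) with vehicle and 38.5 to 48.3 with the drug in U2AF1(WT) mice, and 46.4 to 54.3 and 51.4 to 58.03 in the corresponding U2AF1(S34F) mice. Its interaction of −0.14 (log2, edgeR FDR=0.793) was not called, and neither was that of *Sf3b1*, the drug target (−0.08, edgeR FDR=0.917). Late neutrophil genes, the most abundant marker list of bulk marrow here, summed to 75958 to 85207 CPM in vehicle-treated U2AF1(WT) mice. *Xist* had at least 39145 counts in each U2AF1(WT) mouse and at most 8 in each U2AF1(S34F) mouse, while 4 Y-linked genes together had at most 4 and at least 10270 counts. Genotype, sex and donor pool therefore cannot be told apart in any interaction below. Mice also differed in lymphocyte genes within their groups: the mean log2 CPM of the mature B cell list was 2.47 in vehicle-treated U2AF1(WT) mouse 2 against 3.89 to 4.16 in the 4 other mice of its group, 2.57 and 1.91 in mice 8 and 9 of the sudemycin-treated U2AF1(WT) group against 4.22 to 4.41, and 1.47 in vehicle-treated U2AF1(S34F) mouse 7 against 2.78 to 4.51.

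The drug response of 2 genes differed between the genotypes, *Gla* and *Atf3*. Both fell with the drug in U2AF1(WT) mice, and neither passed the test in U2AF1(S34F) mice. They were the only 2 of 15392 genes tested to pass FDR<10% for the interaction, a share of 0.013%, both in the positive direction. An unadjusted p under 0.05 was reached by 1144 genes (7.43%), 603 positive (3.92%) and 541 negative (3.51%), where 5% of the genes tested would be 769.6. Among the 100 genes of smallest p, 79 were positive. With the drug and vehicle groups of one genotype compared in the same fit, 1072 genes (6.96%) were called in U2AF1(WT) and 788 (5.12%) in U2AF1(S34F) mice. The order turned with the 10 mice of each genotype fitted alone, to counts of 453 and 1588, and the counts ranged from 622 (without vehicle-treated U2AF1(WT) mouse 5) to 1832 (without vehicle-treated U2AF1(WT) mouse 2) and from 347 (without vehicle-treated U2AF1(S34F) mouse 3) to 1019 with 1 mouse left out. Of the 270 genes called in both genotypes, 268 moved in the same direction and none had a called interaction. Of the 802 called in U2AF1(WT) mice alone, 681 had the same sign in U2AF1(S34F) mice, and of the 518 called in U2AF1(S34F) mice alone, 411 had the same sign in U2AF1(WT) mice. Of the 13802 genes called in neither genotype, 61.9% had the same sign in both. Among the genes called in 1 genotype alone, *Gla* and *Atf3* were the only ones with a called interaction. An unadjusted interaction p under 0.05 was reached by 267 of those 802 (33.3%) and by 197 of those 518 (38%). It was reached by 663 of the genes called in neither (4.8%). These groups were picked by the same drug effects that make up the interaction. The count of interaction calls rose to 116 (94 positive) with DESeq2. It was also moved by single mice, to 87 without vehicle-treated U2AF1(S34F) mouse 5, 26 without sudemycin-treated U2AF1(WT) mouse 9, 16 without sudemycin-treated U2AF1(S34F) mouse 9, 13 without vehicle-treated U2AF1(S34F) mouse 1 and 11 without vehicle-treated U2AF1(WT) mouse 2, and *Gla* and *Atf3* were called without each of the 20 mice in turn.

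**Figure D1:**
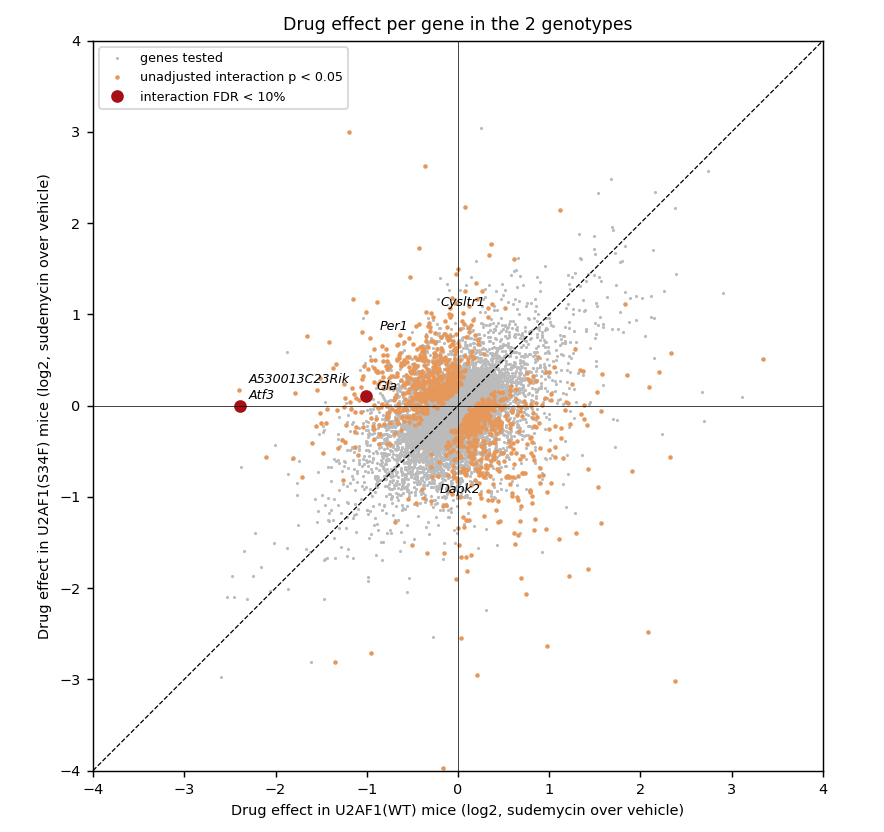
Drug effect of each gene tested (log2, sudemycin over vehicle) in U2AF1(WT) mice on the horizontal and in U2AF1(S34F) mice on the vertical axis; the dashed line marks equal effects and 1 gene lies outside the axis limits. *Gla* and *Atf3* (large points) lie to the left of the line close to a vertical value of 0, the 1144 genes with an unadjusted interaction p under 0.05 are orange, and the remaining genes tested are grey.

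*Gla* (ENSMUSG00000031266, chrX:131122688-131135664, minus strand, mm9) encodes alpha-galactosidase A, the lysosomal enzyme that removes terminal galactose from glycolipids. Its level with vehicle in U2AF1(WT) mice was 25.7, 26.9, 27.7, 28.1 and 31.9 CPM, and with the drug 12.4, 13.1, 13.2, 14.4 and 16.4 CPM. In U2AF1(S34F) mice it was 12.4, 14.2, 14.9, 15.3 and 15.5 CPM with vehicle and 14.1, 14.3, 15, 16.8 and 17.9 CPM with the drug. The U2AF1(WT) groups did not overlap and the U2AF1(S34F) groups did, and the vehicle-treated U2AF1(WT) mice stood above the 15 others. The drug effect was −1.01 (log2, edgeR FDR=1.65e-06) in U2AF1(WT) and 0.11 (edgeR FDR=0.611) in U2AF1(S34F) mice, which gave an interaction of 1.12 (standard error 0.13, edgeR, Benjamini-Hochberg FDR=0.000382). Group means were 28.05 ± 2.31, 13.9 ± 1.59, 14.5 ± 1.25 and 15.6 ± 1.65 CPM (SD, n=5) in the same order. *Gla* is X-linked, and 31 of the 520 X-linked genes tested had an unadjusted interaction p under 0.05 (5.96%), against 1113 of 14872 other genes (7.48%).

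*Atf3* (ENSMUSG00000026628, chr1:192994175-193007219, minus strand, mm9) encodes a stress-induced transcription factor of the ATF/CREB family, which is an immediate-early gene and a target of the integrated stress response. It had 58.7, 59.5, 60.1, 67.4 and 97.3 CPM in vehicle-treated and 8.12, 11.8, 13.6, 14.8 and 17 CPM in sudemycin-treated U2AF1(WT) mice. In U2AF1(S34F) mice it had 3.11, 4.24, 4.82, 5.56 and 6.07 CPM with vehicle and 3.52, 3.83, 4.19, 5.67 and 6.43 CPM with the drug. All vehicle-treated U2AF1(WT) mice thus lay above every other mouse, and each U2AF1(S34F) mouse of either treatment lay below each drug-treated U2AF1(WT) mouse. The drug effect of −2.39 (edgeR FDR=1.65e-06) in U2AF1(WT) and of −0.01 (edgeR FDR=0.993) in U2AF1(S34F) mice gave the larger of the 2 called interactions, 2.38 (standard error 0.30, edgeR FDR=0.000994). Means were 68.6 ± 16.4, 13.1 ± 3.35, 4.76 ± 1.16 and 4.73 ± 1.26 CPM (SD, n=5). With the monocyte list level of each mouse as a covariate, *Atf3* had an interaction of 2.00 (edgeR FDR=0.127) and *Gla* one of 1.09 (edgeR FDR=0.03).

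None of the next 10 genes by p passed FDR<10% (FDR between 0.113 and 0.16, edgeR), and their values are given as a description. Where a genotype has a pair of ranges, the first is with vehicle and the second with the drug. *Per1*, a clock gene that glucocorticoids also induce, had 50.3, 62.9, 81.2, 115 and 131 CPM in vehicle-treated and 34.9, 44.3, 46.1, 47.9 and 52.7 CPM in sudemycin-treated U2AF1(WT) mice. In U2AF1(S34F) mice it had 10.8, 11.8, 12.9, 15.5 and 16.1 CPM with vehicle and 16.7, 17.1, 23.4, 26.7 and 28.5 CPM with the drug. It fell in U2AF1(WT) mice (−0.96, edgeR FDR=0.0161), where the groups overlapped, and rose in U2AF1(S34F) mice (0.75, edgeR FDR=0.0803), where they did not, for an interaction of 1.71. *Nfil3*, the clock-output repressor and lymphoid regulator, had 64.3, 65.95, 72.02, 72.8 and 76.1 CPM with vehicle and 42.1, 49.7, 51.3, 53.7 and 60.4 CPM with the drug in U2AF1(WT) mice. It had 42.5, 45.6, 50.03, 51.5 and 54.2 CPM with vehicle and 49.98, 50.4, 54.5, 64.3 and 64.7 CPM with the drug in U2AF1(S34F) mice. Its drug effect was called in U2AF1(WT) mice (−0.45, edgeR FDR=0.00981) and was 0.22 (edgeR FDR=0.255) in U2AF1(S34F) mice.

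*Tlr2*, the receptor for bacterial lipoproteins, had 128, 129, 145, 155 and 160.4 CPM in vehicle-treated and 101, 106, 107, 109 and 118 CPM in sudemycin-treated U2AF1(WT) mice. The U2AF1(S34F) mice had 72.9, 77.4, 79.98, 83.2 and 87.6 CPM with vehicle and 82.4, 87, 87.7, 93.1 and 111 CPM with the drug. Its drug effect was −0.40 (edgeR FDR=0.00743) in U2AF1(WT) and 0.20 (edgeR FDR=0.223) in U2AF1(S34F) mice. *Cyp27a1*, the mitochondrial sterol 27-hydroxylase, had 15.7 to 21.99 CPM with vehicle and 10.1 to 12 CPM with the drug in U2AF1(WT) mice and 5.18 to 10.4 and 7.30 to 13.8 CPM in U2AF1(S34F) mice. *Stard9*, a kinesin of the mitotic spindle, had 53.9 to 73.98 and 31.96 to 44.9 CPM in U2AF1(WT) mice and 28.6 to 60.6 and 42.2 to 69.01 CPM in U2AF1(S34F) mice. Both had an interaction above 1 (1.14 and 1.18). The transcript *A530013C23Rik* was low throughout, at 2.51 to 6.00 CPM with vehicle in U2AF1(WT) mice and at most 1.05 CPM in the 15 other mice, with an interaction of 2.56. *Ankrd57* had an interaction of 0.58, with 56.5 to 68.99 CPM in vehicle-treated and 41.1 to 55.6 CPM in drug-treated U2AF1(WT) mice, against 40.5 to 51.6 and 45.2 to 55.1 CPM in U2AF1(S34F) mice.

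The drug effect was the larger one in U2AF1(S34F) mice for 3 of the 12 genes. *Cysltr1*, a receptor for cysteinyl leukotrienes, had 3.57, 3.78, 5.66, 6.39 and 7.20 CPM with vehicle and 8.88, 10, 10.8, 11.2 and 13 CPM with the drug in these mice. In U2AF1(WT) mice it had 3.77, 5.10, 5.25, 6.27 and 7.60 CPM with vehicle and 4.03, 4.08, 4.26, 5.14 and 5.31 CPM with the drug. The 5 sudemycin-treated U2AF1(S34F) mice lay above all others, with a drug effect of 1.01 (edgeR FDR=0.00534) against −0.29 (edgeR FDR=0.431). *Dapk2*, a calmodulin-regulated kinase of granulocytes, was the only one of the 12 with a negative interaction (−0.74). It had 9.31, 9.36, 9.47, 10.02 and 10.8 CPM with vehicle and 6.68, 6.92, 8.01, 9.01 and 9.09 CPM with the drug in U2AF1(WT) mice. It had 7.46, 7.88, 8.50, 9.05 and 9.18 CPM with vehicle and 3.61, 3.83, 3.97, 4.09 and 4.86 CPM with the drug in U2AF1(S34F) mice, where the drug groups did not overlap and the effect was called (−1.04, edgeR FDR=3.58e-05). *Arhgef37* had 12.4 to 30.1 CPM with vehicle and 23.1 to 42.5 CPM with the drug in U2AF1(S34F) mice and 33.8 to 51.7 and 25.4 to 33.5 CPM in U2AF1(WT) mice.

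**Figure D2:**
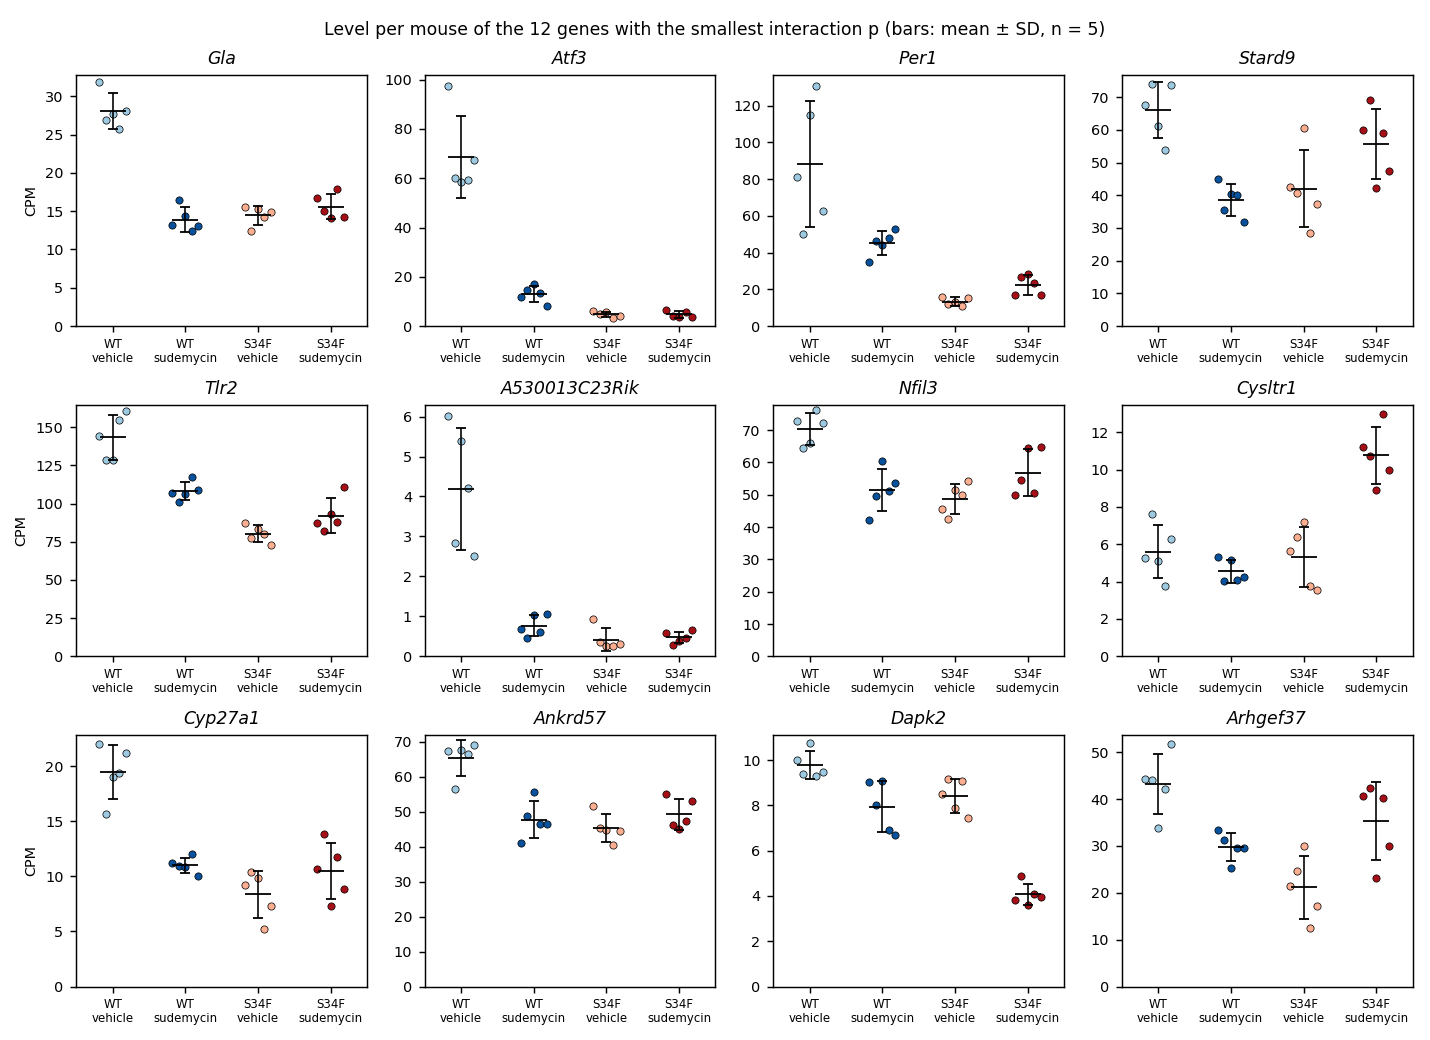
Level per mouse (CPM) of the 12 genes with the smallest interaction p, in the 4 groups on the horizontal axis; points are mice and bars the mean ± SD (n=5). For *Gla*, *Atf3* and *A530013C23Rik* the vehicle-treated U2AF1(WT) mice stand above the 15 others, and for *Cysltr1* the sudemycin-treated U2AF1(S34F) mice do.

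The shape seen in *Gla* and *Atf3*, with the vehicle-treated U2AF1(WT) mice apart from the rest, recurred among these genes. In 7 of the 12 (*Gla*, *Atf3*, *Tlr2*, *A530013C23Rik*, *Cyp27a1*, *Ankrd57* and, narrowly, *Dapk2*, whose lowest vehicle-treated U2AF1(WT) value was 9.31 CPM and whose next highest mouse of another group had 9.18 CPM) every vehicle-treated U2AF1(WT) mouse was above the 15 others. Over all genes tested 131 had this order (0.851%), and the share among these 12 comes from the same values that ranked them. *Per1* was lowest in the 5 vehicle-treated U2AF1(S34F) mice, as were 86 of all genes (0.559%). *Dapk2* was also lowest in the 5 sudemycin-treated U2AF1(S34F) mice, an order found in 104 genes (0.676%).

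Most genes of the inflammation list fell with the drug in U2AF1(WT) mice and few did in U2AF1(S34F) mice, and the levels of U2AF1(S34F) mice were low with either treatment. In the list of 22 inflammatory cytokines and mediators, 14 fell and 1 rose in U2AF1(WT) mice (background 3.4% and 3.57% of all genes), and 3 fell and 2 rose in U2AF1(S34F) mice (2.55% and 2.57%). No interaction in the list passed FDR<10%. An unadjusted interaction p under 0.05 was reached by 12 of the 22, all positive, against 3.92% of all genes, and the median interaction was 0.61 against −0.04 over all genes. The list summed to 2364 to 2889 CPM in vehicle-treated and 1503 to 1775 CPM in sudemycin-treated U2AF1(WT) mice. In U2AF1(S34F) mice it summed to 913 to 1366 CPM and 889 to 1175 CPM, so that both treatment groups lay below every U2AF1(WT) mouse. Beside *Tlr2*, *Nfkbiz*, an inducible regulator of NF-κB, fell, at 252 to 313 CPM with vehicle and 130.2 to 191 CPM with the drug in U2AF1(WT) mice (−0.92, edgeR FDR=0.000346) and had 58.4 to 103 and 53.99 to 71.1 CPM in U2AF1(S34F) mice. *Ccl4*, a chemokine for monocytes and T cells, fell, at 3.80 to 8.22 CPM with vehicle and 0.979 to 1.78 CPM with the drug (−2.10, edgeR FDR=0.000538) and had 0.760 to 2.07 and 0.471 to 1.58 CPM. The positive interactions were not shared by the whole list, since *Il1b* (0.04), *Ptgs2* (0.03) and *Tnf* (−0.20) were near 0 or below it.

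The 27 immediate-early genes, transcription factors and phosphatases that respond within minutes to stimuli, held *Atf3* as their only called interaction. Of them 8 had an unadjusted p under 0.05, all positive, against 3.92% of all genes, and the median was 0.32 (0.20 without vehicle-treated U2AF1(WT) mouse 4). The drug lowered 14 in U2AF1(WT) and 6 in U2AF1(S34F) mice and raised none, where 3.4% and 2.55% of all genes fell. The summed level was 4390.3 to 8765 CPM and 3790.5 to 4838 CPM in U2AF1(WT) mice, and 1957 to 2828 CPM and 1819 to 2081 CPM in U2AF1(S34F) mice, where it was already low with vehicle. *Dusp1*, the phosphatase of MAP kinases, fell, at 437 to 1003 CPM with vehicle and 318 to 389.6 CPM with the drug in U2AF1(WT) mice (−1.12, edgeR FDR=0.00334) and had 132 to 252 and 144 to 235 CPM in U2AF1(S34F) mice. *Fosb*, a subunit of AP-1, fell, at 42.3 to 92.3 CPM with vehicle and 19.97 to 31.5 CPM with the drug (−1.51, edgeR FDR=0.00412) and had 4.99 to 10.3 and 3.54 to 11.8 CPM. In the 22 genes of the integrated stress and unfolded protein response the median interaction was 0.21 (0.09 without vehicle-treated U2AF1(WT) mouse 2). There were 5 unadjusted p-values under 0.05, all positive, against 3.92% of all genes in this direction. They were those of *Atf3*, of *Atf4* (0.43), the translationally controlled factor of this response, of *Hspa5* (0.44), the chaperone of the endoplasmic reticulum, and of *Ddit3* and *Ppp1r15a*.

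Monocyte genes had opposite median drug effects in the 2 genotypes. The median over 16 genes was −0.37 in U2AF1(WT) and 0.36 in U2AF1(S34F) mice, and the median interaction 0.61. An unadjusted interaction p under 0.05 was reached by 10 of the 16, all positive, against 3.92% of all genes in this direction. None passed FDR<10%. The drug effect was called for few: 1 rose and 2 fell in U2AF1(WT) mice, and 1 rose in U2AF1(S34F) mice. Of all genes 3.57% rose and 3.4% fell in the former, and 2.57% rose in the latter. With the mean level of the same 16 genes as a covariate the median interaction was 0.06. That value follows from the adjustment, since the list was set against itself. The list summed to 6068 to 7949.9 and 5592 to 6649.6 CPM in U2AF1(WT) mice and to 5725 to 7440.2 and 6537 to 8398 CPM in U2AF1(S34F) mice, with overlap in both genotypes. In bulk RNA a smaller number of cells of a type and less RNA per cell cannot be told apart. *Fn1*, fibronectin, had an interaction of 1.33 (edgeR FDR=0.256), *Ccr2*, the chemokine receptor of inflammatory monocytes, one of 1.01 (edgeR FDR=0.305), and *F13a1*, the coagulation factor XIII subunit, one of 0.86 (edgeR FDR=0.347). *Ccr2* had 264 to 549.8 and 226 to 342 CPM in U2AF1(WT) and 312 to 619 and 574 to 870.5 CPM in U2AF1(S34F) mice. *Ly6c2*, the antigen of inflammatory monocytes, had an interaction of 0.12. With the monocyte level as a covariate 5 rather than 12 inflammatory genes had an unadjusted p under 0.05, all positive, and the list median was 0.42. In that fit 308 of all 15392 genes had an unadjusted p under 0.05 in this direction.

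Lysosomal genes, the group of *Gla*, leaned the same way. Of 38 hydrolases and membrane proteins, 29 had an interaction above 0 (43.2% of all genes did), with a median of 0.17. An unadjusted p under 0.05 was reached by 8, all positive, against 3.92% of all genes in this direction. *Gla* alone was called. *Ctsl*, cathepsin L, had 34.9 to 44.1 and 24.9 to 33.6 CPM in U2AF1(WT) and 24.4 to 35.2 and 32.6 to 47.9 CPM in U2AF1(S34F) mice (interaction 0.74, edgeR FDR=0.167). *Ctsc*, cathepsin C, rose in U2AF1(S34F) mice, at 122 to 299 CPM with vehicle and 332 to 448 CPM with the drug (1.13, edgeR FDR=0.0222), and its effect in U2AF1(WT) mice was −0.04. With the monocyte level as a covariate 2 were positive and 1 negative at an unadjusted p under 0.05, against 308 and 470 of all 15392 genes.

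**Figure D3:**
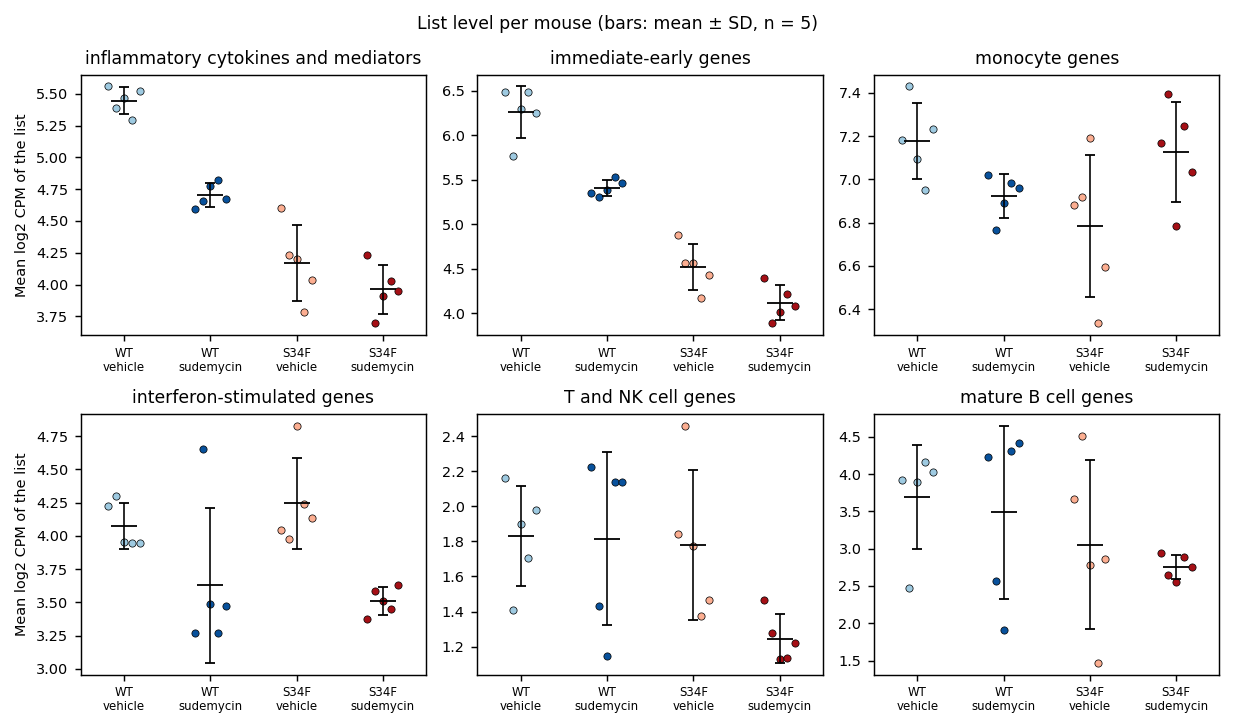
Mean log2 CPM of 6 gene lists per mouse in the 4 groups; points are mice and bars the mean ± SD (n=5). Inflammatory and immediate-early levels are highest with vehicle in U2AF1(WT) mice, and the lymphocyte lists of sudemycin-treated U2AF1(S34F) mice lie in a narrower range than those of the other groups.

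Lymphocyte, erythroid and interferon-stimulated genes had negative median interactions, and no gene in these lists was called. Every one of the 22 T and NK cell genes had a negative interaction, where 43.2% of all genes tested had one above 0. The median was −0.67, and −0.44 without vehicle-treated U2AF1(S34F) mouse 3. An unadjusted p under 0.05 was reached by 6, against 3.51% of all genes in this direction. With limma voom the median was −0.59. With the monocyte level as a covariate it was −1.14, and 12 of the 22 had an unadjusted p under 0.05, all negative. In that fit 470 of all 15392 genes did in this direction. *Cd8a*, the coreceptor of cytotoxic T cells, had 1.55, 1.71, 2.27, 2.57 and 2.84 CPM with vehicle and 1.57, 2.85, 3.48, 3.96 and 4.41 CPM with the drug in U2AF1(WT) mice. It had 0.905, 0.919, 1.5, 2.31 and 2.67 CPM with vehicle and 0.774, 0.819, 0.886, 0.943 and 1.07 CPM with the drug in U2AF1(S34F) mice, and its interaction was −1.43 (edgeR FDR=0.347). *Il2rb*, a subunit of the interleukin-2 receptor, had an interaction of −0.78 (edgeR FDR=0.49). The 13 mature B cell genes were likewise all negative (median −0.70), but none had an unadjusted p under 0.05, and this median was −0.96 without sudemycin-treated U2AF1(WT) mouse 9 and −0.17 without vehicle-treated U2AF1(S34F) mouse 3. This median was −0.12 with limma voom. With the lymphocyte level, the mean of the T, NK and mature B cell genes, as a covariate it was 0.54. There 3 of the 13 were called and 7 had an unadjusted p under 0.05, all positive. Over all 15392 genes of that fit, 225 were called positive and 114 negative. An unadjusted p under 0.05 was reached there by 1184 positive and 1221 negative genes. In the same fit the T and NK median was −0.35, with 3 of the 22 called, all negative. Both lists are part of this covariate, so that these values give each list relative to the mean of both. All 25 erythroid genes were negative too (median −0.49, 3 with an unadjusted p under 0.05), among them *Epor*, the erythropoietin receptor (−1.38), and *Rhag*, of the Rhesus complex of red cells (−1.26, and −0.77 without sudemycin-treated U2AF1(WT) mouse 6). The erythroid median was −0.20 without vehicle-treated U2AF1(S34F) mouse 3, −0.30 with limma voom and 0.02 with the lymphocyte level as a covariate. The members of a list share the cells of a mouse and are not independent of each other.

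For the 36 interferon-stimulated genes the median drug effect was −0.23 in U2AF1(WT) mice, where 5 fell, and −0.61 in U2AF1(S34F) mice, where 15 fell, and none rose. Of all genes 3.4% and 2.55% fell. The median interaction was −0.37, and −0.10 without sudemycin-treated U2AF1(WT) mouse 8, which was high in these genes. There were 4 unadjusted p-values under 0.05, all negative, against 3.51% of all genes in this direction. *Gbp2*, a guanylate-binding protein, had 13.6, 15.8, 15.97, 17.8 and 32.6 CPM with vehicle and 13.3, 13.8, 14.4, 26.7 and 217 CPM with the drug in U2AF1(WT) mice. It had 14.4, 24.9, 42.9, 87.8 and 160.0 CPM with vehicle and 15.9, 17.8, 24.9, 27.6 and 49.3 CPM with the drug in U2AF1(S34F) mice. Its interaction of −2.85 (edgeR FDR=0.551), which was −1.11 without sudemycin-treated U2AF1(WT) mouse 8, thus holds 1 sudemycin-treated U2AF1(WT) mouse far above its group and a wide range in vehicle-treated U2AF1(S34F) mice. *Ifit3*, an antiviral effector, had an interaction of −1.75 (edgeR FDR=0.595), and of −0.73 without the same mouse. Genes of MHC class I presentation had a median interaction of −0.28 over 18 genes (−0.14 without that mouse). Of them 5 had an unadjusted p under 0.05, all negative, against the same 3.51% of all genes. *H2-K1*, a classical class I heavy chain, fell in U2AF1(S34F) mice (−0.67, edgeR FDR=0.000231). It had 367 to 436 and 240.1 to 269 CPM there, and 438 to 493 and 334 to 486 CPM in U2AF1(WT) mice. Its interaction, −0.42 to −0.28 without each mouse in turn, was called in none of these fits. Reads of the H2 genes can be shared among near-identical family members, so that single values are uncertain.

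Genes of the spliceosome and of housekeeping pathways had medians near that of all genes. The median interaction was −0.05 over 20 U2AF, SF3B and SF3A factors, 0.03 over 39 SR and hnRNP regulators and 0.02 over 14 nonsense-mediated decay factors. It was −0.05 over 78 ribosomal proteins, −0.03 over 77 respiratory chain subunits and 0.00 over 36 cell cycle genes. *Clk1*, a kinase of SR proteins, fell in U2AF1(WT) mice (−0.62, edgeR FDR=0.000538), was at −0.27 (edgeR FDR=0.129) in U2AF1(S34F) mice and had an interaction of 0.35 (edgeR FDR=0.504). *U2af1l4*, the U2AF1 paralogue, had 17.7 to 19.2 and 20.5 to 22.6 CPM in U2AF1(WT) mice, where it rose (0.22, edgeR FDR=0.0352), and 19.3 to 20.8 and 18.8 to 20.3 CPM in U2AF1(S34F) mice.

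**Figure D4:**
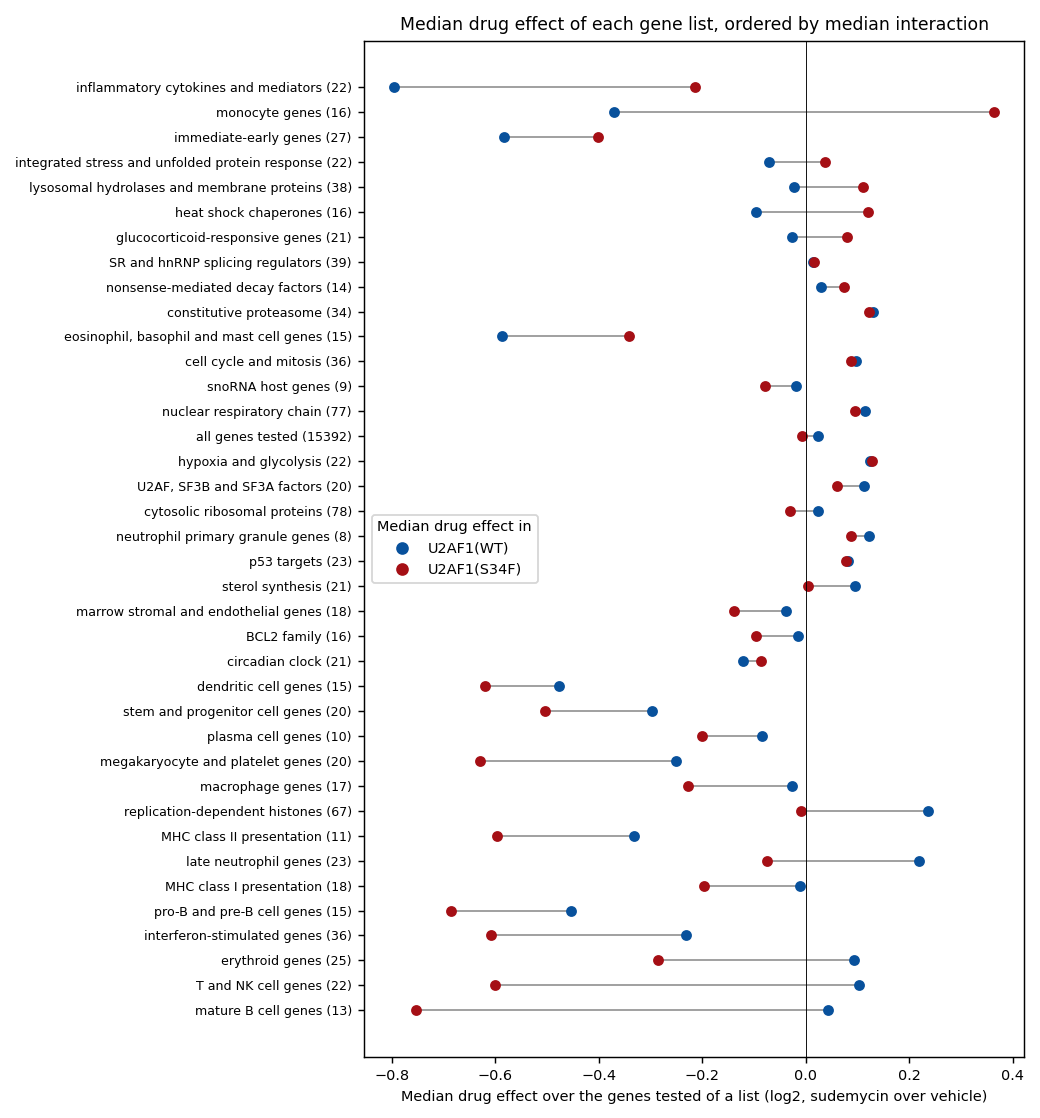
Median drug effect over the tested genes of each list (number in brackets; log2, sudemycin over vehicle) in U2AF1(WT) and in U2AF1(S34F) mice, ordered from the most positive median interaction at the top. Inflammatory, monocyte and immediate-early genes head the order and T and NK and mature B cell genes end it, with all genes tested near 0.

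Splicing was compared as Ψ, the share of transcripts that hold an exon or use a site, from junction reads. No event passed FDR<10% with a difference between the drug effects over 1%, out of 41127 tested (0.0%, edgeR), and 2186 (5.32%) had an unadjusted p under 0.05. These were 1834 of 34949 cassette exons (5.25%), 175 of 2866 choices between acceptors (6.11%), 82 of 1725 choices between donors (4.75%) and 95 of 1587 mutually exclusive pairs (5.99%). With limma on Ψ the count was also 0, with 1642 unadjusted p-values under 0.05. In the same fit the drug changed 636 events (1.55%) in U2AF1(WT) and 204 (0.496%) in U2AF1(S34F) mice, 121 of them in both, and each of these 121 moved in the same direction in both genotypes (40 up and 81 down). The smaller number in U2AF1(S34F) mice is not a called difference for any event. Of 200 simulated events with a log odds difference of 1 between the drug effects the test recovered 124, with 17 false calls. Of 200 with a difference of 2 it recovered 195, with 19 false calls. The changed events were drawn from those of intermediate Ψ and higher read counts, with 1 fixed spread between mice. The recovery therefore does not extend to rarely used or nearly constant isoforms, such as several described below.

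The 8 events of smallest p are described with no call. The acceptor sites of the 7 cassette exons among them are shown, since U2AF1 binds there. Each has the last 20 bases of the intron and the first 3 of the exon, 5′ to 3′, with the AG and the base before it, position −3, in capitals (mm9).
Myst2, chr11:95164621-95164643, minus strand: tcttttaaaaccggtgtTAGatt
H2-T24, chr17:36152018-36152040, minus strand: tgtctgtctgtctacggCAGacc
Rps9, chr7:3657590-3657612, plus strand: ccattctatctcctgtgCAGcct
Btk, chrX:131107844-131107866, minus strand: ttcctcattctttccttCAGaga
Bcas3, chr11:85174506-85174528, plus strand: atttatcaaatattataCAGgtg
Chaf1a, chr17:56195824-56195846, plus strand: tcttttctctttcctttCAGgtt
Sirpb1b, chr3:15503214-15503236, minus strand: ttgtactccttgattttCAGaac
Only the exon of *Myst2* has a T at position −3, and the 6 others have a C.

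The exon of *Myst2* (chr11:95164447-95164623, 177 bp), which encodes the histone acetyltransferase KAT7, was skipped in a few per cent of transcripts. Its Ψ was 93.4, 93.9, 94.2, 96.3 and 100% with vehicle in U2AF1(WT) mice and 100% in all 5 given the drug. In U2AF1(S34F) mice it was 95.7, 96.1, 97.3, 97.7 and 100% with vehicle and 96.05, 96.2, 96.9, 97.7 and 97.8% with the drug. Skipping was thus absent from the reads of the drug-treated U2AF1(WT) mice and present in all drug-treated U2AF1(S34F) mice, and 1 vehicle-treated mouse of each genotype also had none. The drug effects of 4.43 and −0.436 percentage points differed by −4.87 (edgeR FDR=0.236, 878 to 1445 reads per mouse).

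The exon of *H2-T24* (chr17:36151745-36152020, 276 bp), a non-classical MHC class I gene, had the largest difference among the 8. Its Ψ was 6.43, 7.14, 7.57, 11.03 and 18.6% with vehicle and 25.96, 38.98, 39.2, 43.96 and 45.2% with the drug in U2AF1(WT) mice. In U2AF1(S34F) mice it was 16.2, 16.8, 18.3, 23.1 and 23.3% and 3.19, 10.99, 11.6, 20.9 and 36.2%. The U2AF1(WT) groups did not overlap, the U2AF1(S34F) groups did, and the effects of 28.5 and −2.95 points differed by −31.5 (edgeR FDR=0.236). Related class I genes can share its reads. The exon of *Sirpb1b* (chr3:15503102-15503216), a signal-regulatory protein with close paralogues, was at 70.4 ± 10.3% and 56.8 ± 11% (SD, n=5) in U2AF1(WT) and at 52.1 ± 10.5% and 66.3 ± 7.82% in U2AF1(S34F) mice (edgeR FDR=0.872).

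The exon of *Chaf1a* (chr17:56195844-56195900), the large subunit of the chromatin assembly factor CAF-1, was included in nearly all transcripts. Its Ψ fell, at 99.5 to 100% with vehicle and 90.9 to 98.6% with the drug, in U2AF1(WT) mice (edgeR FDR=0.0421), without overlap, and was 96.6 to 97.6% and 95.4 to 99.7% in U2AF1(S34F) mice. The exon of *Bcas3* (chr11:85174526-85174564, 39 bp), a cytoskeletal and autophagy protein, was rarely included, at 2.13 to 6.95% and 0 to 2.75% in U2AF1(WT) and 3.30 to 11.5% and 4.40 to 11.5% in U2AF1(S34F) mice. That of *Btk* (chrX:131107748-131107846), the kinase of B cell receptor signalling, had a drug effect of 1.77 points in U2AF1(WT) and −0.591 points in U2AF1(S34F) mice. *Rps9*, a ribosomal protein with processed pseudogenes, had an alternative exon (chr7:3657610-3657783) at 2.87 to 3.52% and 2.67 to 3.30% in U2AF1(WT) mice, and at 2.13 to 2.68% and 2.88 to 3.36% in U2AF1(S34F) mice, without overlap (edgeR FDR=0.0038). That drug effect of 0.735 points and the interaction of 0.940 points are both under the 1% limit of a call. In *Cd177*, a neutrophil surface protein with a duplicated exon array, the share of one of a pair of mutually exclusive exons (chr7:25535595-25535714 against chr7:25543349-25543468) was 55.4 ± 0.895% and 51.9 ± 1.06% in U2AF1(WT) and 53.4 ± 1.25% and 54.6 ± 1.62% (SD, n=5) in U2AF1(S34F) mice.

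**Figure D5:**
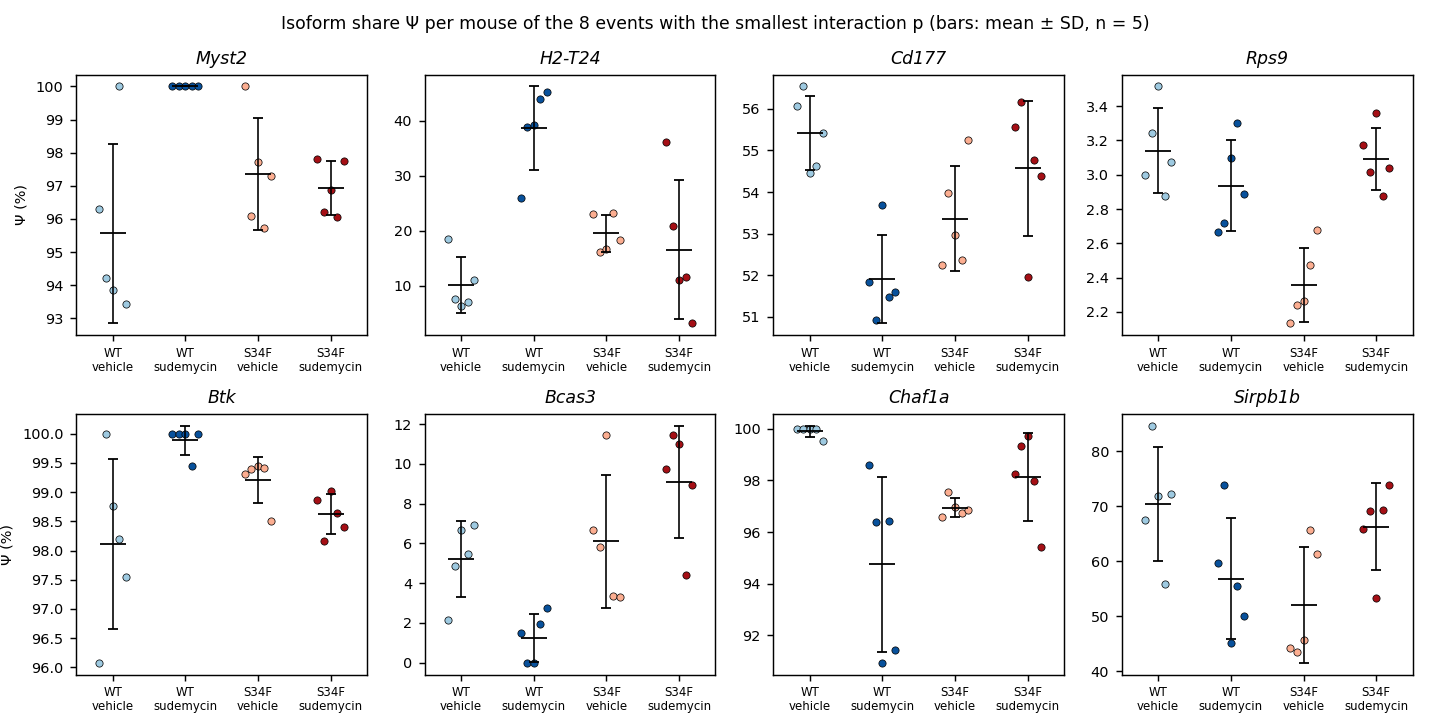
Ψ per mouse (%, vertical axes not starting at 0) of the 8 events with the smallest interaction p in the 4 groups; points are mice and bars the mean ± SD (n=5). For *Myst2*, all 5 sudemycin-treated U2AF1(WT) mice are at 100%, and for *H2-T24* they lie above the vehicle-treated U2AF1(WT) mice.

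Junctions were also tested one by one, annotated or not, as a share of the reads at their splice site. Of 37661 junctions 1 passed (0.00266%), between 36367549 and 36420925 on the minus strand of chromosome 16, where neither end is annotated and the intron starts with AT and ends with AC. The call rests on few mice. In the sudemycin-treated U2AF1(WT) group only mouse 9 had reads at the site, 0 of 1635 on the junction, and the 4 other mice had none at all. Where the site was read in U2AF1(S34F) mice, the junction took 49.87% to 50.04% of its reads in all but 1 mouse, as in 2750 of 5496 and 2055 of 4109, and 0 of 43 in that mouse. The site holds 2 junctions, which thus had nearly equal counts in those mice. Whether the same reads were counted on both was not tested, so the share may not measure usage. The call was lost without sudemycin-treated U2AF1(WT) mouse 9 (0 called) and without vehicle-treated U2AF1(WT) mouse 2, and with at least 1 read at the site required in every mouse 0 of 36096 junctions were called. No junction between annotated sites was called (0 of 13625, of which 555 had an unadjusted p under 0.05), and limma on the share called 1 junction that is not among those described here.

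Of the next 7 junctions by p, 6 had an annotated site at 1 or both ends, and none was called. In *Pnpla7*, a lysophospholipase, a 5′ end that is not annotated (chr2:24897190-24897609) took 0.909 to 3.52% of the reads at its acceptor with vehicle and 10.4 to 15.1% with the drug in U2AF1(WT) mice, without overlap. It took 3.64 to 8.24% and 7.41 to 9.07% in U2AF1(S34F) mice (edgeR FDR=0.841). In *Cd47*, the receptor that signals against phagocytosis, a junction (chr16:49886769-49894290) took 0.260 to 1.22% and 2.13 to 4.23% in U2AF1(WT) and 1.44 to 3.43% and 1.02 to 2.80% in U2AF1(S34F) mice. In *Lilrb4*, an inhibitory receptor of myeloid cells, one (chr10:51213984-51214205) took 0 to 35.9% and 0 to 18.2% against 0 to 15.2% and 0 to 42.3%, with as few as 3 reads at the site in 1 mouse. Another unannotated junction on chromosome 13 (21846123 to 21925745) had sites without reads in 1 mouse, and 2 further ones were the skipping junction of the *Myst2* exon, read from its 2 sides.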

How the data were processed

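Stranded, ribosome-depleted bone marrow RNA of 20 mice was sequenced in pairs. Per the methods and the labels, the authors aligned the reads to mm9 with TopHat2 2.0.8. They deposited counts on 37620 genes and on 554616 splice junctions as whole numbers without normalization, and the program that counted reads on genes is not given in the sources used here. Gene symbols, positions and annotated sites came from GENCODE vM1 of the same build, which held 37205 of the genes.

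The gene test was that of edgeR 4.0.16, run in R 4.3.3 (filterByExpr by group, TMM, robust quasi-likelihood fit of all 20 mice, prior count 2) with Benjamini-Hochberg adjustment at FDR<10%. The drug effects and their difference are contrasts of 1 fit. Events were built from junctions that join annotated sites and were kept at 10 or more reads per mouse on average, with 10 over all mice on the less used isoform. Single junctions needed a mean of 5 reads, and 20 at the site. The ratio test had 1 term per mouse and a negative binomial dispersion of 0, so that it is a moderated quasi-binomial test. Retained introns were not analysed here. Depth was 41145892 to 62138138 gene counts per mouse. On simulated counts of 15392 genes the gene interaction test recovered 154 of 200 log2 differences of 1, with 12 false calls. It recovered 198 of 200 differences of 2, with 22 false calls. The genes changed had a mean over 1 CPM. Counts were drawn for each gene on its own, so differences that many genes of a mouse share were not simulated. With 200 genes changed, the FDR limit is also met at a larger p than with few. The recovery therefore does not give the power of the test on the measured mice. On 8000 simulated events the event test recovered 124 of 200 log odds differences of 1 and 195 of 200 of 2. False calls were 17 and 19, and the events changed had an intermediate Ψ and higher read counts.

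The genes, lists and tests were chosen with earlier results of these data known. Named are the 2 called genes and the next by p up to 12, up to 3 genes of smallest p in each list described, *U2af1*, *Sf3b1*, *Gla* and *Per1*, and 8 events and 8 junctions by p, of which 1 junction is not reported here, and list members named for values near 0 and the further list members named beside *Atf3* were picked after their values were seen. Replicates are mice of 1 group and p-values measure the spread between them. Mice of the 2 genotypes share replicate numbers within a treatment, and the deviations of 7 such pairs from their group means correlated at −0.111 to 0.211 across genes, with 3 pairs over 0.1, so the numbers were not taken to pair mice. Alternatives were DESeq2 1.42.0, limma 3.58.1, other filters, scalings and read minimums, fits with a covariate, and leaving out each mouse. Python 3.11.15, pandas 2.3.3 and matplotlib 3.10.9 were used for tables and plots.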

Additional observations from a re-analysis of the deposited data

Results flagged for a closer look

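*Gla* and *Atf3* were tested for a difference of their drug response between the genotypes and passed it, with interactions of 1.12 and 2.38 on the log2 scale (edgeR FDR=0.000382 and 0.000994). The unannotated junction on chromosome 16 also passed, with a difference of 43.3 percentage points that holds 1 sudemycin-treated U2AF1(WT) mouse. Both junctions of its site had nearly equal counts in most mice with reads there, and the cause was not tested. The call was lost when reads at the site were required in every mouse.

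Of 153 groups of 5 mice behind the named genes, events, junctions and list levels, 12 (7.84%) had 1 mouse farther from the rest than Dixon's limit of 0.71 of the group's range allows, where chance flags about 5%. Among genes, *Atf3* was 97.3 CPM in vehicle-treated U2AF1(WT) mouse 1 (others 58.7 to 67.4), and its interaction without this mouse was 2.22, still called. *A530013C23Rik* was 0.946 CPM in vehicle-treated U2AF1(S34F) mouse 1 (others 0.248 to 0.353), and *Ankrd57* 56.5 CPM in vehicle-treated U2AF1(WT) mouse 2 (others 66.5 to 69.0). Mouse 2 of the vehicle-treated U2AF1(WT) group was also low in mature B cell genes (mean log2 CPM 2.47, others 3.89 to 4.16) and in pro-B and pre-B cell genes (1.53, others 2.61 to 2.77) and high in lysosomal genes (6.51, others 6.26 to 6.33). Interferon-stimulated genes were at 4.66 in sudemycin-treated U2AF1(WT) mouse 8 (others 3.27 to 3.49).

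Among isoforms, Ψ of the *Btk* exon was 99.4% in sudemycin-treated U2AF1(WT) mouse 10 (others all 100%) and 98.5% in vehicle-treated U2AF1(S34F) mouse 11 (others 99.3% to 99.4%). Ψ of the *Chaf1a* exon was 99.5% in vehicle-treated U2AF1(WT) mouse 5 (others all 100%). Vehicle-treated U2AF1(S34F) mouse 3 was at 0% for the chromosome 16 junction (others 49.92% to 50.04%) and at 15.2% for the *Lilrb4* junction (others 0% to 3.85%).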

How the results depend on the processing

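Of 2 called genes in the fit reported, there were 10 without a filter on low counts, 8 with CPM over 1 in at least 5 mice, 1 among autosomal genes (*Atf3*; *Gla* is X-linked), 116 with DESeq2, 2 with limma voom, with DESeq2's size factors and at FDR<5%, and 2 to 87 without each mouse in turn. Both genes were called in each of these fits that tested them. Fits added after seeing the data gave 12 without the 4 mice lowest in lymphocyte genes, 339 with the lymphocyte level as a covariate (225 positive) and 1 with the monocyte level (*Gla*). The cause was not tested. The 4 mice were lowest in the mean of T, NK and mature B cell genes. They were vehicle-treated U2AF1(S34F) mouse 7, sudemycin-treated U2AF1(WT) mouse 9 and sudemycin-treated U2AF1(S34F) mice 6 and 9. The 12 genes of smallest p kept their sign in all fits and on linear CPM, while 17 of 117 named genes, none of them called, changed sign in at least 1 fit. Drug effects counted 453 genes in U2AF1(WT) and 1588 in U2AF1(S34F) mice when the 10 mice of a genotype were fitted alone. With DESeq2 they counted 1549 in U2AF1(WT) and 1241 in U2AF1(S34F) mice. Without each mouse the counts were 622 to 1832 and 347 to 1019. The highest U2AF1(WT) count was without its vehicle-treated mouse 2 and the lowest U2AF1(S34F) count without its vehicle-treated mouse 3.

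Event calls numbered 0 to 2 without each mouse (2 without vehicle-treated U2AF1(S34F) mouse 7) and 0 under other read minimums, limits, minimums on the less used isoform, an estimated dispersion and limma. Junction calls numbered 0 to 2 without each mouse, 2 with 2 reads a mouse, 0 among annotated junctions and 0 with reads at the site in every mouse. A replicate block, whose numbers were not taken to pair the mice, gave 0 genes (636 with an unadjusted p under 0.05), 12 events and 83 junctions, and 3 of 7 pairs correlated best with their own number.

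List medians were recomputed with DESeq2's size factors and without each mouse, and those that moved beyond the spread between mice were MHC class I presentation (−0.336 to −0.137), U2AF, SF3B and SF3A factors (−0.0662 to −0.0047), constitutive proteasome (−0.112 to 0.072) and the stress response (0.0899 to 0.298) without each mouse, and without the 4 lymphocyte-low mice the U2AF, SF3B and SF3A factors (0.0364), megakaryocyte genes (−0.5535) and nonsense-mediated decay factors (0.0758). The spread is the pooled SD of the list level within groups, so lists that vary much between mice can shift further and not be counted. Without each mouse the median of MHC class II genes ran from −0.423 to 0.0797, and that of pro-B and pre-B genes from −0.4996 to 0.127. Those of dendritic cell genes (−0.315 to 0.133) and macrophage genes (−0.318 to 0.0804) also changed sign, among others. Covariates moved lists as well. With the lymphocyte level the medians of mature B (0.54 from −0.70) and of pro-B and pre-B genes (0.70 from −0.29) changed sign. So did those of MHC class II (0.34 from −0.25) and erythroid genes (0.02 from −0.49). With the monocyte level those of monocyte genes (0.06 from 0.61) and macrophage genes (−1.01 from −0.23) moved. Mature B genes are part of the lymphocyte level and monocyte genes make up the monocyte level, so that these lists were adjusted by their own members. With limma voom pro-B and pre-B genes were at 0.13 and mature B genes at −0.12. Leaving out 1 mouse leaves 4 in its group. The standard error of an interaction had a median of 0.20 log2 over genes.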

Other observations

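Among genes of cell death and growth arrest, in the BCL2 family the median interaction was −0.09 over 16 genes. Of these 3 had an unadjusted p under 0.05, all positive, against 3.92% of all genes in this direction, with none called. *Bcl2l11*, which encodes the pro-apoptotic protein BIM, fell in U2AF1(WT) mice (−0.54, edgeR FDR=0.0031), at 46.4 to 65.5 CPM with vehicle and 33.5 to 48.5 CPM with the drug, and was at 29.4 to 33.3 and 28.7 to 35.2 CPM in U2AF1(S34F) mice. *Pmaip1*, which encodes NOXA, fell in U2AF1(WT) mice (−0.95, edgeR FDR=0.0013) and had an effect of −0.14 in U2AF1(S34F) mice (edgeR FDR=0.734). *Cdkn1a*, the cell cycle inhibitor p21, rose in U2AF1(S34F) mice, at 4.79 to 8.34 CPM with vehicle and 7.56 to 13.4 CPM with the drug (0.79, edgeR FDR=0.0194) and had an effect of −0.25 in U2AF1(WT) mice, with an interaction of 1.04 that was not called (edgeR FDR=0.247). The 23 p53 targets had a median interaction of −0.07.

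*Mcpt8*, a basophil protease, fell in U2AF1(WT) mice (−1.23, edgeR FDR=0.0178; interaction 1.02), while *Prg2*, the eosinophil major basic protein, fell in both genotypes (−0.54 and −1.03, interaction −0.48), and neither interaction was called. The 67 replication-dependent histones had a median drug effect of 0.24 in U2AF1(WT) and −0.01 in U2AF1(S34F) mice. Of them 1 reached an unadjusted interaction p under 0.05, against 7.43% of all genes. The median interaction of the histones was −0.24, and −0.05 without sudemycin-treated U2AF1(WT) mouse 9.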
